A study of Rattus norvegicus with 8 samples.

Results

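The neurotrophin ligands Bdnf and Ntf3 and the receptors Ntrk2, Ntrk3, Ngfr and Sort1 were examined in the orbitofrontal cortex of male, adult rats of the outbred Sprague-Dawley strain. They are the protein-coding rows of the deposited count table that carry these 6 symbols, 6 of 34298 genes. Each symbol matched 1 row. The selection rule uses no measured value, but the genes, lists and relations were chosen with earlier results of these data known. The animals were 8 weeks old on arrival. Every animal received 1 µl of siRNA complex holding 5 ng of siRNA in the JetPEI transfection reagent, infused into the orbitofrontal cortex, and the tissue was taken 7 days later. Scrambled control siRNA went to 4 animals, numbered 1, 3, 4 and 5. The other 4, numbered 1 to 4, had siRNA against the joint that closes circNrxn3, a circle of RNA spliced from Nrxn3 transcripts, and their libraries are called knockdown libraries after their labels. Throughout, values listed by library follow these numbers. There was no group without an infusion, so the response to the infusion itself, shared by both groups, was not measured.

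BDNF is a secreted growth factor that cortical excitatory neurons make in response to activity, and it is known for strengthening synapses. It acts through the receptor tyrosine kinase TrkB, the product of Ntrk2. The related ligand NT-3, from Ntf3, acts mainly through TrkC, the product of Ntrk3. The unprocessed precursors of both ligands bind the p75 receptor, from Ngfr, together with sortilin, from Sort1, which also sorts proBDNF inside the cell. Ntrk2 gives rise to a full-length kinase receptor, prominent in neurons, and to a truncated receptor, prominent in astrocytes. The counts here are sums per gene, so these forms, and the transcripts from the several Bdnf start sites, were not told apart.

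The siRNA that defines the knockdown group is shown because it is the only difference between the groups that the labels give. Both strands are written 5′ to 3′, and capitals in the antisense strand mark its seed, bases 2 to 8.
sense: uccaaaggcuagacaggaauu
antisense: uUCCUGUCuagccuuuggauu
RefSeq promoter windows of the GRCr8 assembly were matched for Bdnf (6 windows), Ntf3 (3) and Sort1 (1). The Bdnf window of start 4, counted along the plus strand, is shown because it is the only one of these that holds the short form of the cyclic AMP response element, TGACG on either strand, the kind of site through which neuronal activity acts on genes. It covers the 250 bases upstream of that start on the plus strand at chr3:116637608-116637857, and capitals mark the match.
Bdnf, start 4: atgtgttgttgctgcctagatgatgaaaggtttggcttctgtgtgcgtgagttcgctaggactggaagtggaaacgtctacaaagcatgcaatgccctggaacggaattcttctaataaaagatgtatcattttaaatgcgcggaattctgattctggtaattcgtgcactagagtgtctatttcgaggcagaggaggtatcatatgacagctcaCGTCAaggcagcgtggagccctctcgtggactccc
The match begins 35 bases before the start. The same letters occur in 18.2% of 33365 promoter windows of this length. The full element TGACGTCA occurs in 1.59% of windows and the E-box CACGTG in 5.60%, and neither is in the windows of Bdnf, Ntf3 or Sort1.

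Between 27589883 and 35221782 reads were counted per library. Nrxn3, the host gene of the circle, had 114 to 344 reads in scrambled libraries and 82 to 430 in knockdown libraries, not scaled to depth. These are reads on a gene model with 1293 bp of exon over 168.6 kb. Its log2 fold change of knockdown over scrambled was 0.20 (standard error 0.48, adjusted p = 0.948, edgeR). The libraries were selected for poly-A tails, so the circle itself was not measured. Slc17a7, the vesicular glutamate transporter of cortical excitatory neurons, marked the tissue as labelled, at 604 to 905 FPKM. FPKM are read counts scaled to gene model length and library size. The striatal markers Drd2 and Adora2a were at 0.964 to 3.39 and 1.59 to 3.00 FPKM. Of 10 marker lists for cell types and striatum, none had a score that passed a 2-sided exact permutation test between the groups (smallest p = 0.0571, for red blood cell genes). Among the 5 red blood cell genes the log2 fold change had its median at −1.14. All 5 were lower at an unadjusted p under 0.05 (adjusted p = 0.833 each, edgeR), and 2 did not overlap. Over all genes tested these shares were 3.2% and 3.48%. The red blood cell score was 1.47 in scrambled replicate 3 but −0.23 in scrambled replicate 4, inside the knockdown range of −1.07 to −0.14. The summed level of the 5 genes was 607 to 2438 CPM in scrambled and 359 to 759 CPM in knockdown libraries, and its part in the values below was not tested. Libraries differed in the level of long against short transcripts. This was measured as the mean centred log2 CPM (counts scaled to library size) of genes with models over 3486 bp minus that of genes under 1372 bp. It was lowest in scrambled replicates 4 and 3 and knockdown replicate 3 (−0.15, −0.08 and −0.05) and highest in knockdown replicate 2 (0.15). Its mean was −0.046 in scrambled and 0.046 in knockdown libraries (2-sided exact permutation p = 0.2). A fit with this measure as a covariate therefore cannot fully separate it from the siRNA group.

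Measured per length, the receptors Sort1 and Ntrk2 were far more abundant than the ligands. Sort1 averaged 69.7 ± 5.88 FPKM over the 8 libraries and Ntrk2 28.0 ± 3.11 FPKM (SD, n = 8). Bdnf was at 2.83 ± 0.675, Ntrk3 at 2.20 ± 0.970, Ntf3 at 0.916 ± 0.477 and Ngfr at 0.183 ± 0.0463 FPKM (SD, n = 8). Sort1 exceeded Ntrk2, and Ntrk2 exceeded Bdnf, in 8 of 8 libraries without overlap of their ranges. Bdnf and Ntrk3 were not separated, since Bdnf was the higher in 6 of 8 libraries and the ratio of their FPKM ran from 0.825 to 2.77. Ntrk3 exceeded Ntf3 in 7 of 8 libraries with overlapping ranges, and Ntf3 was 2.09 to 10.4 times Ngfr. The ratio of Bdnf to Ntf3 in FPKM ran from 1.38 to 5.05 in scrambled and from 2.63 to 6.53 in knockdown libraries. The ratio of Ntrk2 to Ntrk3 ran from 10.2 to 22.3 and from 8.52 to 22.8.

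No member passed a test between the siRNA groups. All 6 were tested, 0 were called at an adjusted p under 0.05 and 0 at an unadjusted p under 0.05, in the edgeR quasi-likelihood test over 16573 genes with Benjamini-Hochberg adjustment. That test called 0% of all genes, and 5.59% had an unadjusted p under 0.05, 2.38% higher and 3.2% lower in knockdown libraries. DESeq2 called 0.445% of the 4042 genes to which it gave an adjusted p. Of the members only Ntrk2 (adjusted p = 0.662, DESeq2) and Sort1 (adjusted p = 0.568, DESeq2) were among those 4042, so the other 4 could not be called by it. In each of the 6 genes the values of the groups overlapped, whereas the groups did not overlap in 3.48% of all genes tested. In bulk tissue, fewer cells of a type and less RNA per cell cannot be told apart, and this holds for each value below. No other gene model of the table lies within 1 kb of a member in either orientation.

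**Figure D1:**
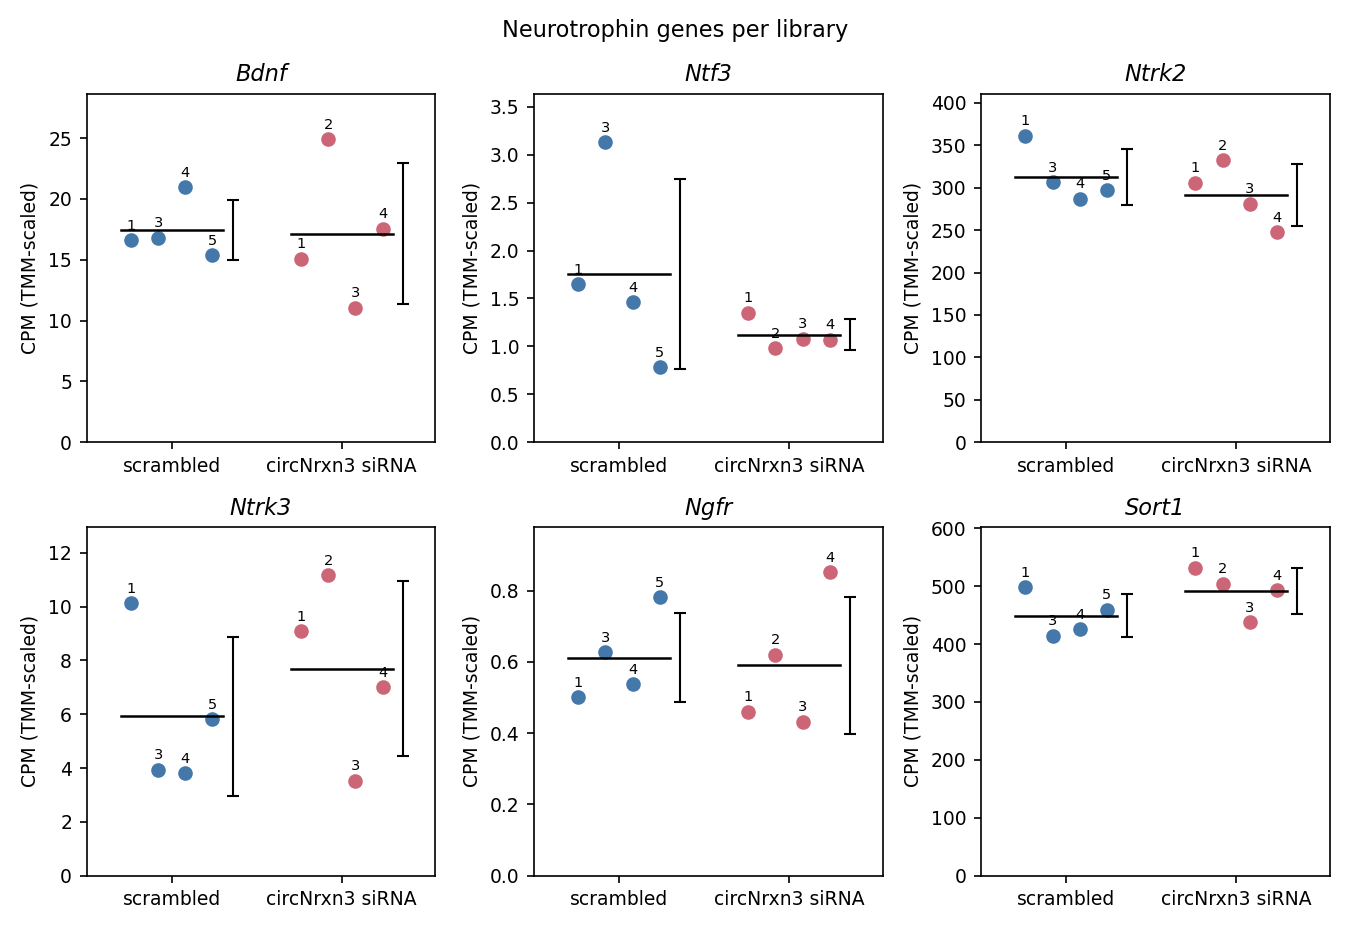
Level of each of the 6 genes in CPM with TMM scaling (y axis, from 0) in scrambled (blue) and circNrxn3 siRNA (red) libraries, 1 point per library with its replicate number, black line for the mean and bar for the SD (n = 4 per group). The groups overlap in all 6 panels, and Ntf3 in scrambled replicate 3 (3.13 CPM) and Bdnf in knockdown replicate 2 (24.9 CPM) are the highest values of their genes.

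Bdnf (ENSRNOG00000047466, chromosome 3, 100768637 to 100819210, rn6, plus strand) had similar mean levels in both groups but a wider spread among knockdown libraries. The scrambled libraries held 16.6, 16.8, 21.0 and 15.4 CPM, and the knockdown libraries 15.1, 24.9, 11.0 and 17.6 CPM. The highest and the lowest of the 8 libraries were thus both knockdown libraries, and the other 2 lay within the scrambled range or just below it. Means were 17.4 ± 2.45 and 17.1 ± 5.83 CPM (SD, n = 4 each). The log2 fold change of knockdown over scrambled was −0.02, its standard error (SE) 0.22 and its 95% interval −0.52 to 0.47 (adjusted p = 0.990, edgeR). The interval in folds runs from 0.700 to 1.38, so larger shifts of the mean in either direction lie outside it. Whether the spreads of the groups differ was not tested. With 307 to 763 reads per library, counting error alone gives a coefficient of variation of about 4.28%, and the observed one was 23.9%. The sign of the fold change was not fixed, at −0.26 without knockdown replicate 2 and 0.13 without knockdown replicate 3, neither called. A fit without the 3 libraries lowest in long transcripts, chosen after seeing the data, gave 0.27 (adjusted p = 0.994, edgeR).

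Ntf3 (ENSRNOG00000019716, chromosome 4, 158636884 to 158705886, minus strand) was rare, with 23 to 105 reads per library. The scrambled libraries held 1.65, 3.13, 1.46 and 0.782 CPM, and the knockdown libraries 1.35, 0.979, 1.08 and 1.07 CPM. The 4 knockdown values lay inside the scrambled range, and scrambled replicate 3 stood above the rest. The log2 fold change was −0.65, its SE 0.41 and its 95% interval −1.55 to 0.26 (adjusted p = 0.833, edgeR). It was the member with the largest difference, and that size rested largely on 1 library, being −0.21 without scrambled replicate 3 and −0.90 without scrambled replicate 5. It was −0.09 without the 3 libraries lowest in long transcripts (adjusted p = 0.994, edgeR). These include scrambled replicate 3, so that fit does not separate the long-transcript measure from this 1 library. With the long-transcript measure as a covariate, added after seeing the data, the log2 fold change was −0.53 (adjusted p = 0.986, edgeR).

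Ntrk2 (ENSRNOG00000018839, chromosome 17, 5933729 to 6244676, minus strand), which encodes TrkB, was measured with 7813 to 11314 reads per library. The scrambled libraries held 361, 306, 287 and 297 CPM, and the knockdown libraries 306, 333, 281 and 247 CPM. Scrambled replicate 1 was the highest library and knockdown replicate 4 the lowest, with the other 6 interleaved. Means were 313 ± 33.3 and 292 ± 36.3 CPM (SD, n = 4 each, 2-sided exact permutation p = 0.400). The log2 fold change was −0.10, its SE 0.11 and its 95% interval −0.34 to 0.14 (adjusted p = 0.883, edgeR). Leaving out scrambled replicate 1 gave −0.02, knockdown replicate 4 −0.03 and knockdown replicate 2 −0.17. With the long-transcript measure as a covariate, added after seeing the data, it was −0.24 (unadjusted p = 0.0180, adjusted p = 0.950, edgeR).

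Ntrk3 (ENSRNOG00000018674, chromosome 1, 139890560 to 140262503, minus strand), which encodes TrkC, varied widely among animals, by 3.17 times from the lowest to the highest library. The scrambled libraries held 10.1, 3.94, 3.82 and 5.81 CPM, and the knockdown libraries 9.08, 11.2, 3.53 and 7.00 CPM. The 3 low libraries, scrambled replicates 3 and 4 and knockdown replicate 3, are the 3 lowest in long transcripts. The 3 high ones are the 3 highest in that measure, whose part in these values was not tested. The Ntrk3 model itself, with 3055 bp of exon, is under the 3486 bp cut and is not among the long transcripts of the measure. The log2 fold change was 0.38, its SE 0.40 and its 95% interval −0.52 to 1.28 (adjusted p = 0.883, edgeR). Leaving out scrambled replicate 1 gave 0.77, knockdown replicate 3 0.61 and knockdown replicate 2 0.15. It was 0.23 without scrambled replicate 3 and 0.22 without scrambled replicate 4. With the long-transcript measure as a covariate its sign turned, to −0.27 (adjusted p = 0.976, edgeR). Counting error gives a coefficient of variation of about 6.84% at these counts, against 44.5% observed.

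**Figure D2:**
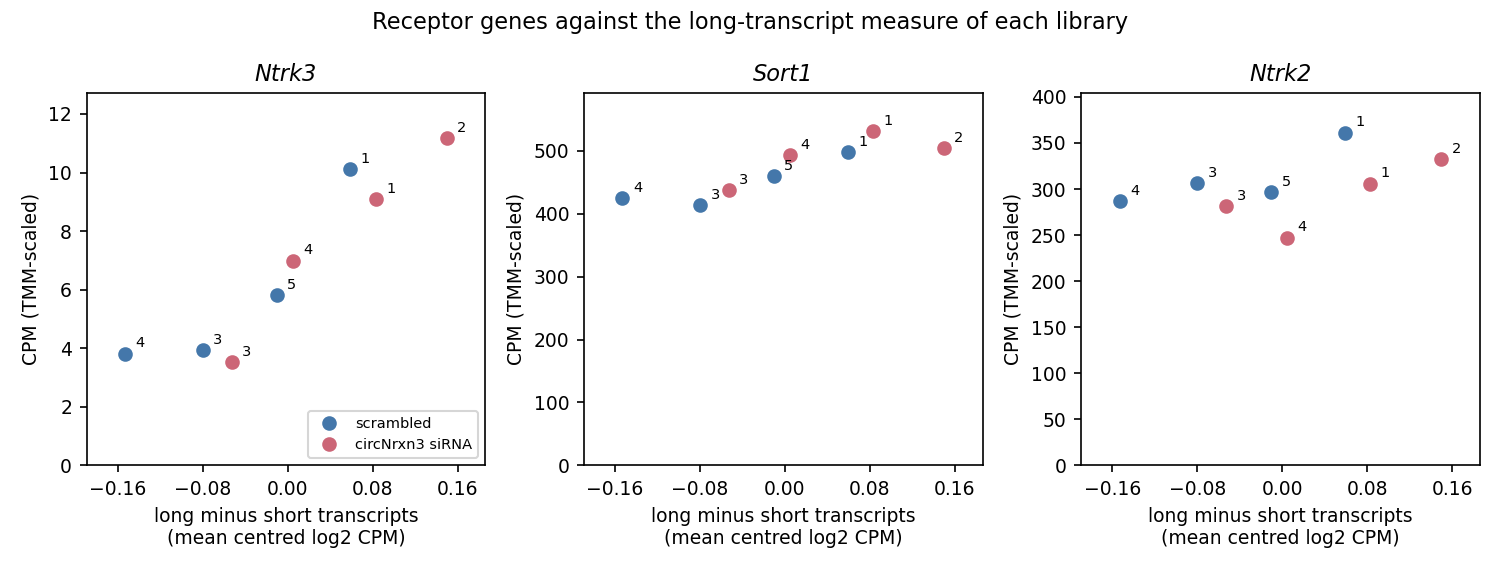
Level of Ntrk3, Sort1 and Ntrk2 in CPM (y axes, from 0) against the long-minus-short transcript measure of the same library in log2 units (x axis), for scrambled (blue) and circNrxn3 siRNA (red) libraries with replicate numbers. Ntrk3 goes from 3.53 to 3.94 CPM in the 3 libraries below −0.05 to 9.08 to 11.2 CPM in the 3 above 0.05, Sort1 moves in the same sense over a narrower range, and Ntrk2 is highest in scrambled replicate 1.

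Ngfr (ENSRNOG00000005392, chromosome 10, 83389847 to 83408061, minus strand), the p75 receptor, was the rarest member, with 14, 21, 18 and 23 reads in scrambled and 17, 19, 12 and 27 reads in knockdown libraries. These were 0.501, 0.626, 0.536 and 0.782 CPM, and 0.459, 0.620, 0.432 and 0.851 CPM. Both groups covered nearly the same range. The observed coefficient of variation of 25.1% was close to the 23.0% that counting error gives, so differences between animals were not detectable at this depth. The log2 fold change was −0.05, its SE 0.40 and its 95% interval −0.94 to 0.84 (adjusted p = 0.989, edgeR). Without knockdown replicate 4 it was −0.28, and without knockdown replicate 3 it was 0.06.

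Sort1 (ENSRNOG00000031814, chromosome 2, 211078334 to 211156312, plus strand), which encodes sortilin, was the most deeply counted member, with 12162 to 19670 reads. The scrambled libraries held 498, 414, 425 and 460 CPM, and the knockdown libraries 532, 504, 438 and 493 CPM. The 2 highest libraries were knockdown replicates 1 and 2 and the 2 lowest were scrambled replicates 3 and 4, with overlap between. Means were 449 ± 37.8 and 492 ± 39.5 CPM (SD, n = 4 each, 2-sided exact permutation p = 0.171). The log2 fold change was 0.13, its SE 0.09 and its 95% interval −0.06 to 0.32 (adjusted p = 0.834, edgeR), which in folds is 0.958 to 1.25. The 3 lowest libraries of Sort1, apart from their order, were the same 3 that were low in Ntrk3 and in long transcripts. With that measure as a covariate the log2 fold change was 0.03 (adjusted p = 0.999, edgeR).

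**Figure D3:**
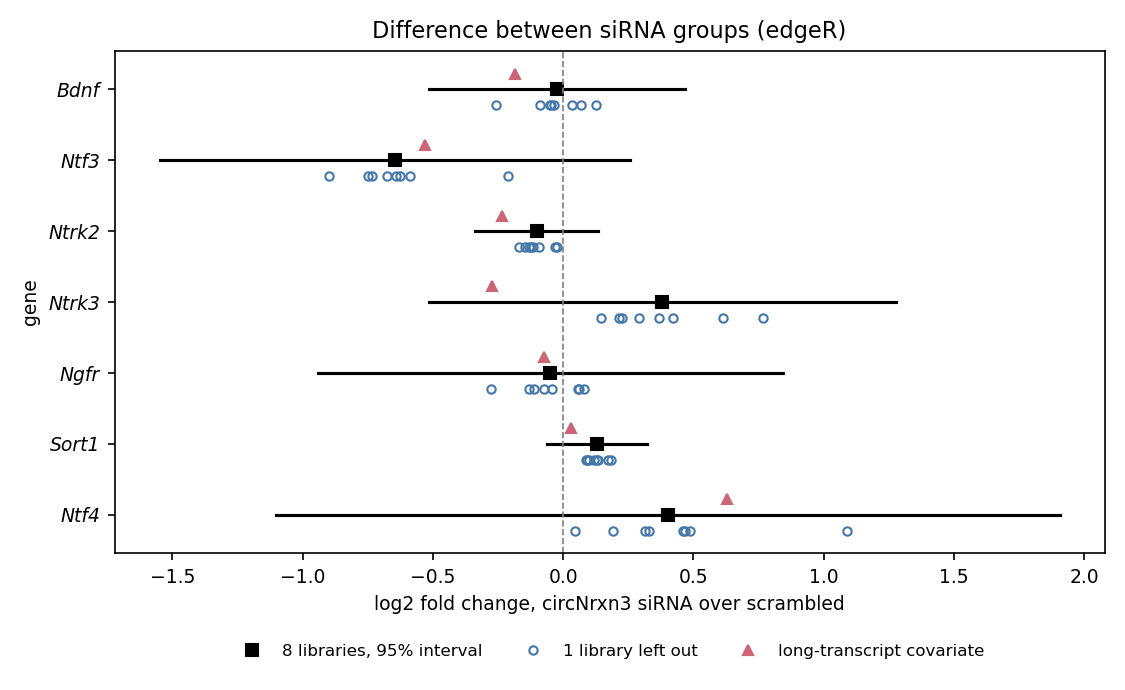
Log2 fold change of circNrxn3 siRNA over scrambled (x axis) for the 6 genes and for Ntf4 (y axis), black squares with 95% intervals from the edgeR fit of 8 libraries, open circles for fits with 1 library left out and triangles for the fit with the long-transcript covariate. Each interval spans 0, and the triangle of Ntrk3 (−0.27) lies on the other side of 0 from its square (0.38).

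Ntf4, another TrkB ligand, had 1, 23, 6 and 11 reads in scrambled and 13, 15, 10 and 16 reads in knockdown libraries. The single read in scrambled replicate 1 set much of its log2 fold change of 0.40 (95% interval −1.10 to 1.91, adjusted p = 0.926, edgeR), which was 0.04 without that library and 1.09 without scrambled replicate 3.

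Bdnf was set beside the genes that neuronal activity or BDNF itself induces. The immediate early transcription factor Npas4, which binds Bdnf promoters, was at 19.1, 25.6, 26.4 and 12.7 CPM in scrambled and 9.97, 14.2, 18.0 and 25.8 CPM in knockdown libraries. Fos was at 25.7, 31.6, 40.3 and 28.8 CPM and at 16.7, 27.6, 25.7 and 42.5 CPM. Arc, a synaptic activity gene, was at 172, 290, 359 and 299 CPM and at 161, 111, 263 and 408 CPM. All 3 were high in scrambled replicate 4 and knockdown replicate 4 and low in knockdown replicate 1. Bdnf was at 21.0, 17.6 and 15.1 CPM in these libraries, beside a mean of 17.3 CPM over the 8 libraries. It differed from Arc most plainly in knockdown replicate 2, where Bdnf was highest (24.9 CPM) and Arc lowest. The log2 fold changes of Npas4, Fos and Arc were −0.30, −0.17 and −0.25 with standard errors of 0.31, 0.26 and 0.41 (adjusted p = 0.881, 0.918 and 0.925, edgeR). With the long-transcript covariate they were 0.02, 0.07 and 0.24.

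Over the 8 libraries, 3 relations between a member and a list score were computed. A score is the mean, over the tested genes of a list, of log2 CPM minus each gene's mean. Bdnf against the activity list gave a Pearson r of 0.539 (exact permutation p = 0.162, adjusted p = 0.162) and a Spearman coefficient of 0.690 (exact permutation p = 0.0694, adjusted p = 0.104). Without knockdown replicates 1 and 4, the 2 libraries farthest out, r was 0.660 (exact permutation p = 0.142). Ntrk2 against the astrocyte list gave r = 0.785 (exact permutation p = 0.0138, adjusted p = 0.0415) and a Spearman coefficient of 0.714 (exact permutation p = 0.0576, adjusted p = 0.104). Without scrambled replicates 1 and 5 it was r = 0.870 (exact permutation p = 0.0417). The relation was chosen with earlier results known, so this p is not independent support. Ntrk2 was thus higher where astrocyte transcripts were higher by r, while the Spearman coefficient did not pass after adjustment. The adjusted p of r (exact permutation, n = 7) was 0.203 with scrambled replicate 1 left out and 0.199 with knockdown replicate 4 left out. Leaving out scrambled replicate 3 or 4, or any of knockdown replicates 1 to 3, gave 0.0518 to 0.0974, and leaving out scrambled replicate 5 gave 0.00714. All 14 astrocyte markers were tested and none was at 0 in any library. Their summed level was 5203 to 5881 CPM in scrambled and 4994 to 5379 CPM in knockdown libraries, and 9 of 14 were below 0. Their part in the Ntrk2 values was not tested. Ngfr against the mural and meningeal list, cells in which p75 is known, gave r = −0.631 (exact permutation p = 0.0873, adjusted p = 0.131) and a Spearman coefficient of −0.500 (exact permutation p = 0.216, adjusted p = 0.216). Without knockdown replicate 4 and scrambled replicate 1 it was r = −0.157 (exact permutation p = 0.754), so that relation rested on those libraries. Ngfr also had only 12 to 27 reads per library, and its variation was close to counting error. With 4 libraries a group, no relation within a group is reported.

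**Figure D4:**
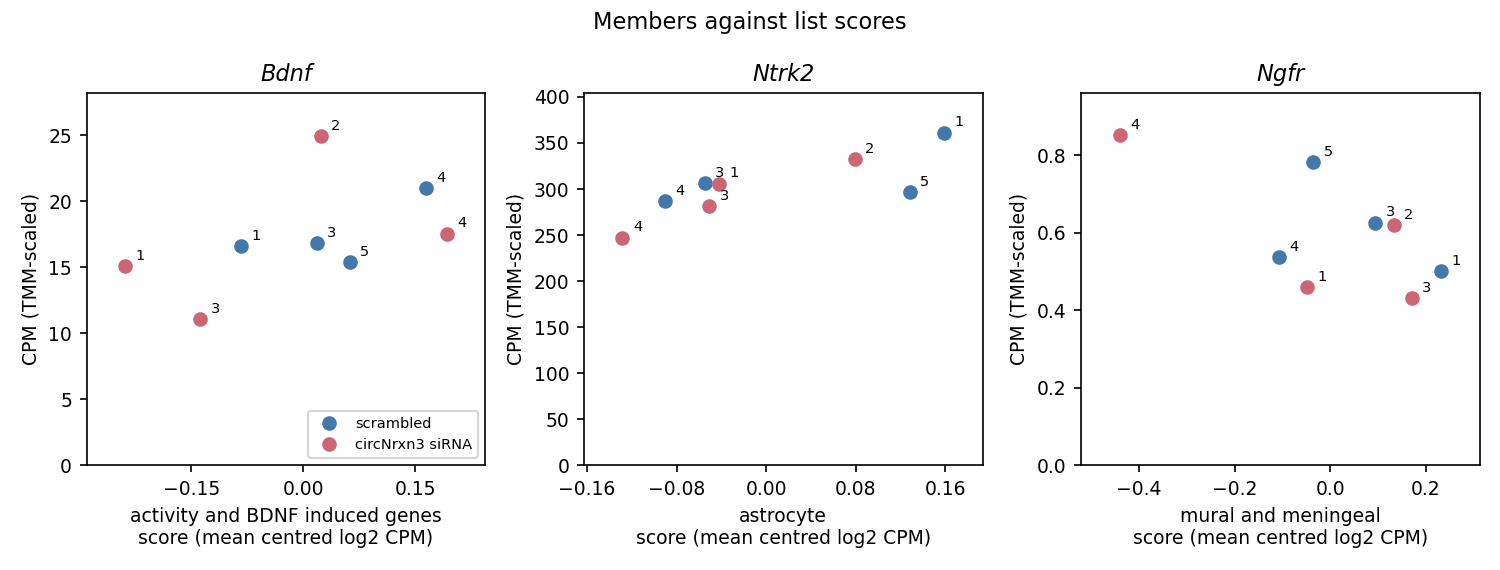
Level of Bdnf, Ntrk2 and Ngfr in CPM (y axes, from 0) against the score of the activity, astrocyte, and mural and meningeal lists (x axes, mean centred log2 CPM) in the same library, scrambled in blue and circNrxn3 siRNA in red with replicate numbers. Ntrk2 increases with the astrocyte score (r = 0.785), Bdnf is scattered (r = 0.539), and the Ngfr relation (r = −0.631) leans on knockdown replicate 4 at the far left.

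The genes whose profile over the 8 libraries was most like each member were named by Pearson r of log2 CPM among 10232 protein-coding genes with a mean of at least 5 CPM. These r are descriptions of the best matches among many, and all genes share the same 8 libraries. For Ntrk2 the closest gene was Slc1a3, the astrocyte glutamate transporter GLAST and a member of the astrocyte list (r = 0.969), followed by Snrnp200 (0.948) and Phf10 (0.940). Slc1a3 was at 464, 387, 385 and 402 CPM in scrambled and 413, 449, 375 and 342 CPM in knockdown libraries, so scrambled replicate 1 was its highest and knockdown replicate 4 its lowest library, as for Ntrk2. For Ntrk3 they were Actr2, a subunit of the Arp2/3 complex (0.994), Atp2b1, a plasma membrane calcium pump (0.993), and Dnm1l, a mitochondrial fission protein (0.992). Actr2 was at 12.5 to 14.7 CPM in the 3 libraries lowest in long transcripts and at 26.6 to 55.2 CPM in the other 5. For Sort1 they were Brwd1 (0.993), Cdv3 (0.987) and Gcc2, a Golgi protein (0.987), each lowest in the same 3 libraries. Bdnf matched less closely, with Plrg1 (0.931) and LOC100912852 (0.931). Ntf3 was most like Camkv (0.964), Cst6 (0.964) and Ryr1 (0.960), each highest in scrambled replicate 3. Ngfr was most like the potassium channel gene Kcnc4 (0.978), Tmem200c (0.925) and Mavs (0.912). Its own variation was close to counting error, so these matches may follow counting noise.

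The wider pathway was read through 6 lists of 163 symbols without the members, of which 155 were found and 151 gene models tested. None was called in the edgeR test. At an unadjusted p under 0.05 there were 12, that is 7.95% against 5.59% of all genes, and the groups did not overlap in 3, that is 1.99% against 3.48%. The median log2 fold change of the 151 was −0.0025, beside 0.0066 for all genes. The genes named here are the 3 with the smallest p in each list, which favours large differences, and each had an adjusted p of 0.833 except Furin (0.838, edgeR).

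Of 13 other ligands, receptors and co-receptors, 5 were above and 8 below 0, and the median log2 fold change was −0.05. Rtn4r, the Nogo receptor that signals together with p75, was at 331 ± 31.3 and 281 ± 32.3 CPM in scrambled and knockdown libraries (SD, n = 4 each), and its log2 fold change was −0.24 (SE 0.10). Nradd, a p75-related death domain receptor, was at 2.22, 1.94, 2.32 and 2.28 CPM in scrambled and 1.92, 1.37, 1.44 and 1.23 CPM in knockdown libraries, without overlap. Its log2 fold change was −0.55 (SE 0.25), and its model lies within 1 kb of Nbeal2. Ngfrap1, a p75-associated protein, had −0.18. With the long-transcript covariate Rtn4r had −0.14, Nradd −0.59 and Ngfrap1 −0.03. Of 15 genes for proneurotrophin processing and sorting, 6 were above and 9 below 0, with a median of −0.04. Pcsk1, a prohormone convertase, had the lowest log2 fold change of all lists, −1.98 (SE 0.66). It was at 1.86, 3.67, 0.805 and 0.612 CPM in scrambled and 0.459, 0.849, 0.216 and 0.221 CPM in knockdown libraries, so the groups overlapped at low levels. Its log2 fold change was −1.31 without scrambled replicate 3 and −0.29 on the log2(FPKM + 1) scale, which compresses low levels. Cadps2, a secretory vesicle protein that promotes BDNF release, was at 47.5, 60.3, 62.2 and 64.9 CPM in scrambled and 71.8, 65.1, 75.5 and 74.6 CPM in knockdown libraries. The groups did not overlap, and its log2 fold change was 0.29 (SE 0.10). Furin, which cleaves proBDNF, had −0.18, and −0.07 without knockdown replicate 1. With the covariate Pcsk1 had −2.63, Cadps2 0.40 and Furin −0.06.

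Of 49 gene models for Trk adaptors and downstream signalling, 30 were above and 19 below 0, and the median log2 fold change was 0.04. Pik3r1, the p85 regulatory subunit of PI3 kinase, was at 33.4, 32.0, 38.0 and 32.1 CPM in scrambled and 39.2, 43.7, 44.7 and 41.4 CPM in knockdown libraries. Its groups did not overlap, and its log2 fold change of 0.32 (SE 0.08, unadjusted p = 0.00305, edgeR) had the smallest p of the pathway genes. Plcg1, the phospholipase C recruited by TrkB, was at 85.8 ± 5.19 and 97.5 ± 5.80 CPM (SD, n = 4 each), and its log2 fold change was 0.18 (SE 0.07). Map2k2, the kinase MEK2, had −0.20 (SE 0.08). With the covariate Pik3r1 had 0.37, Plcg1 0.12 and Map2k2 −0.11. Of 22 genes for p75 signalling, 12 were above and 10 below 0, with a median of 0.02. Arhgdia had −0.26 and Rela, a subunit of NF-kB, −0.19. Adam10, a membrane protease that can shed receptors, had 0.59 (SE 0.24). With the covariate Arhgdia had −0.11, Rela −0.11 and Adam10 0.22. Adam10 was at 7.57, 9.60 and 11.7 CPM in the 3 libraries lowest in long transcripts, all below the other 5.

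Of 23 regulators of Bdnf transcription, 11 were above and 12 below 0, and the median log2 fold change was −0.0094. Usf2 and Usf1, E-box factors that bind a Bdnf promoter, had −0.22 and −0.20, and Usf1 lies within 1 kb of Tstd1. Hdac5, a histone deacetylase that activity exports from the nucleus, had −0.26. With the long-transcript covariate these were −0.13, −0.07 and −0.15. Of 35 activity and BDNF induced genes, 12 were above and 23 below 0, with a median of −0.11. Nr4a2, an orphan nuclear receptor, had 0.54 (SE 0.20), the zinc finger factor Egr4 −0.44 and the ERK phosphatase Dusp5 −0.37. Within this list Nr4a2 thus lay on the other side of 0 from Egr4, and Dusp5 was −0.16 without scrambled replicate 4. With the covariate Nr4a2 had 0.50, Egr4 −0.25 and Dusp5 −0.13, and without the 3 libraries lowest in long transcripts Egr4 had −0.14.

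**Figure D5:**
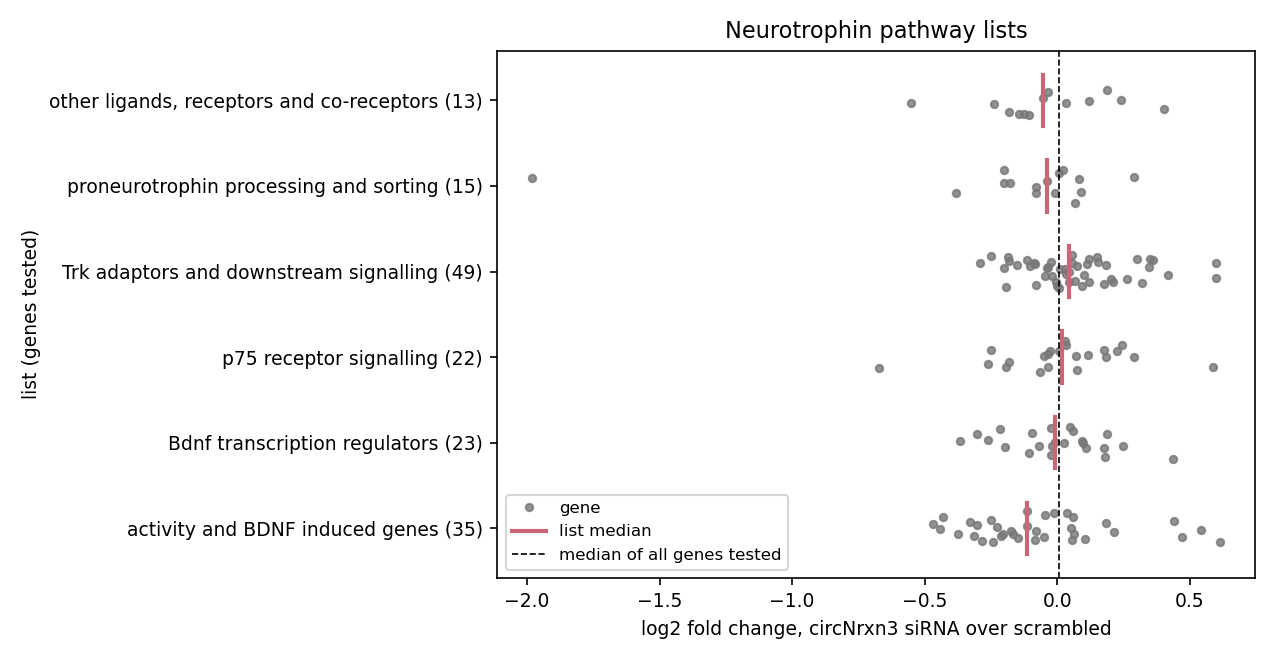
Log2 fold change of circNrxn3 siRNA over scrambled (x axis) for the tested genes of the 6 pathway lists (y axis, number tested in brackets), 1 grey point per gene with random vertical spread, red bars for list medians and a dashed line for the median of all genes (0.0066). List medians lie between −0.11 and 0.04, and Pcsk1 (−1.98) is the point at the far left.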

How the data were processed

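The authors deposited whole-number read counts per gene, not normalized, and FPKM values for the same genes. Counts divided by FPKM and gene length give 1 implied total per library, which differs from the sum of its counts, so the authors' FPKM carry a scaling factor. Build rn6, featureCounts 1.5.0-p3, HISAT2 2.0.5, fastp and StringTie 1.3.3b are listed, per the submitters' processing notes. Libraries were poly-T selected and strand-marked, per the labels' protocols, and no source used here says whether the counting was stranded. The labels call the samples biological replicates. Columns were matched to samples by title. Every pair of libraries of a group differed by more than sampling noise (chi-square of 23.2 to 47.4 for each degree of freedom).

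Counts of all genes were fitted with edgeR 4.0.16 (R 4.3.3; filterByExpr with a minimum count of 10, TMM factors, quasi-likelihood F test with robust dispersions, no covariates) and adjusted by the Benjamini-Hochberg method over 16573 genes. Standard errors were taken as log2 fold change over the root of F, and intervals cover 95%. CPM are TMM-scaled. Exact permutation tests were 2-sided over 70 arrangements (smallest p = 0.0286), or over all orders of the libraries for relations. The procedure was tested on simulated data. Alternatives were RLE and upper-quartile scaling, other filters, DESeq2 1.42.0, limma 3.58.1 (voom, and log2 of FPKM plus 1 or 0.1), a replicate block and leaving out libraries. The members, lists and relations were chosen with earlier results of these data known. Named are the 6 members, Ntf4, Npas4, Arc and Fos, the 3 genes of smallest p in each pathway list and the 3 genes most like each member. Some genes that this rule names are not reported here. Promoter sequences are from RefSeq (GRCr8). Their coordinates are not those of rn6.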

Additional observations from a re-analysis of the deposited data

Results flagged for a closer look

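Nr4a2 in scrambled replicate 4 stood apart from its group, at 7.03 CPM against 4.92 to 5.26 CPM in the other 3 scrambled libraries. It was the only such value among 56 groups of 4 libraries examined for the named genes, and chance alone sets apart about 1 group in 20. No value of the 6 members stood apart in this way.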

How the results depend on the processing

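No alternative called a member, although DESeq2 gave no adjusted p to Bdnf, Ntf3, Ntrk3 or Ngfr, and Ngfr had no value under the CPM filter. Genes called numbered 18 with DESeq2, 0 to 1 with 1 library left out, and 3 without the 3 libraries lowest in long transcripts, against 0 in the edgeR fit of 8 libraries. The log2 fold changes of Ntf3, Ntrk2 and Sort1 kept their sign in all alternatives run. Without those 3 libraries the signs of Bdnf (0.27), Ngfr (0.0013), Npas4 (0.075) and Fos (0.090) turned, and with the long-transcript covariate those of Ntrk3 (−0.27), Npas4 (0.016), Arc (0.24) and Fos (0.070). Both settings were chosen after seeing the data, and the cause was not tested. With 1 library left out the range was −0.26 to 0.13 for Bdnf, −0.90 to −0.21 for Ntf3, −0.17 to −0.02 for Ntrk2, 0.15 to 0.77 for Ntrk3, −0.28 to 0.081 for Ngfr and 0.088 to 0.18 for Sort1. It was −0.44 to 0.016 for Fos and 0.648 to 0.924 for r of Ntrk2 with the astrocyte list.

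Replicate numbers 1, 3 and 4 occur in both groups. Deviations from the group means correlated at 0.37, 0.30 and 0.09 across genes for these numbers. For knockdown replicates 1, 3 and 4 this was the highest value with any scrambled library. Scrambled replicate 4, however, was closer to knockdown replicate 3 (0.22). Pairs with different numbers ran from −0.44 to 0.28. The labels do not say whether a number marks a shared batch or day. The reported fit was therefore left unpaired, and whether a number marks a shared batch was not tested. With the replicate block on these 6 libraries edgeR called 0 of 16721 genes (1692 at an unadjusted p under 0.05, against 508 for the same libraries without it). The unadjusted p of Bdnf was then 0.0395, of Ntrk2 0.00510 and of Sort1 0.0343 (adjusted p = 0.462, 0.240 and 0.444, edgeR). In that fit the log2 fold changes were −0.33 for Bdnf, −0.75 for Ntf3, −0.19 for Ntrk2, 0.18 for Ntrk3, 0.015 for Ngfr and 0.13 for Sort1. Without the block the same 6 libraries gave 0.065 for Ngfr and 0.018 for Arc. Depth limits Ngfr and Ntf4 most, and a CPM of at least 1 in 4 libraries left Ngfr, Ntf4 and Pcsk1 out.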
